A study of Mus musculus with 16 samples.

Results

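CD antigen genes encode cell surface proteins that were numbered as clusters of differentiation because antibodies to them told blood cell types apart. The genes described here were chosen by name: every array probe with a single gene symbol made of Cd, a number and at most a letter and a further digit, without Cd5. The choice gave 60 of the 20355 probes, for 47 of 9930 named genes. In all, 35 genes had a probe with enough values to be fitted, beside 12420 features, that is genes or unnamed probes, over the whole array. On lists drawn up from common knowledge, 26 of the 47 genes are mainly leukocyte antigens, 19 are expressed in many tissues, and 2 (Cd300c2 and Cd99l2) were put on neither list.

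The study asked how azacytidine changes RNA levels in NIH3T3 cells, a line of mouse embryonic fibroblasts, with and without a transfected Erbb2 gene, which encodes a receptor tyrosine kinase and oncogene. Each of the 16 cDNA arrays compared treated with untreated cells of the same line in 2 colours. Cells carrying Erbb2 were treated with azacytidine at 10 µM (8 arrays) or 5 µM (4 arrays), and NIH3T3 cells without the transgene were treated at 10 µM (4 arrays). Dyes were swapped within each group: 50% of its arrays carried treated RNA in the Cy5 channel, the rest in Cy3. The labels give no promoter or clone for the Erbb2 transgene, no treatment time and no statement that replicate arrays came from separate cultures, so the p-values measure the spread between these arrays, which may be technical.

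Azacytidine resembles cytidine; once incorporated into DNA it binds DNA methyltransferases irreversibly, so that CpG methylation is lost as cells divide. Many leukocyte antigen genes are silent in fibroblasts. Antigens such as the tetraspanins Cd63 and Cd81 and the GPI-anchored complement inhibitor Cd59a are made by fibroblasts and many other cells.

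Each value is a log2 ratio, treated cells over untreated ones, so 1 stands for a doubling, and each fitted value is given ± its standard error. That error rests on 1 spread per feature, estimated over the arrays of all 3 groups, and not on the spread within 1 group. The numerator of the deposited ratios is not stated. The median ratio before the per-array constant was 1 or more on 16 of 16 arrays, in both dye arrangements, so no array appeared to have been turned before deposit. The values were read as Cy5 over Cy3, the usual order for such arrays; the data do not settle that order, and the other one would turn every sign in all 3 groups. Arrays with the treated RNA in Cy3 were turned here; with none turned, limma called 2, 0 and 4 features in the 3 groups in place of 157, 26 and 339. For the untransfected cells both channels carry the same dye name in the labels, and the channel 1 name was used; the other choice would turn every sign of that group alone and leave its p-values as they are. Higher, lower, rose and fell are used with these readings throughout. The arrays give ratios only, with no signal intensity, so whether a leukocyte antigen or a fibroblast marker was expressed at all cannot be read from them, and fewer cells with an RNA and less of it per cell cannot be told apart. Single arrays held 16153 to 18507 values, and the small number of arrays limits precision.

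Across the 35 fitted genes, the response to azacytidine passed the threshold (an adjusted p under 0.05 in limma, with Benjamini-Hochberg adjustment across the 12420 features) for 2 antigens, both in untransfected cells. These were Cd96, a receptor of T and NK cells, and Cd151, a tetraspanin that binds laminin-binding integrins, and both rose by the channel 1 dye names. In Erbb2 cells no CD antigen gene passed at 10 µM or at 5 µM. Of all features, 2.73% passed in untransfected cells, and 0.596% did so with a higher value. With that group turned the other way, both antigens were lower, and 0.596% of all features passed with a lower value. In Erbb2 cells 1.26% of all features passed at 10 µM and 0.209% at 5 µM. Leaving out each array in turn gave 93 to 148 features at 10 µM in place of 157, 5 to 21 at 5 µM in place of 26, and 211 to 368 in untransfected cells in place of 339. With 35 genes, shares of that size allow few or no calls. Whether 2 of 35 exceeded the share of all features was not tested.

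**Figure D1:**
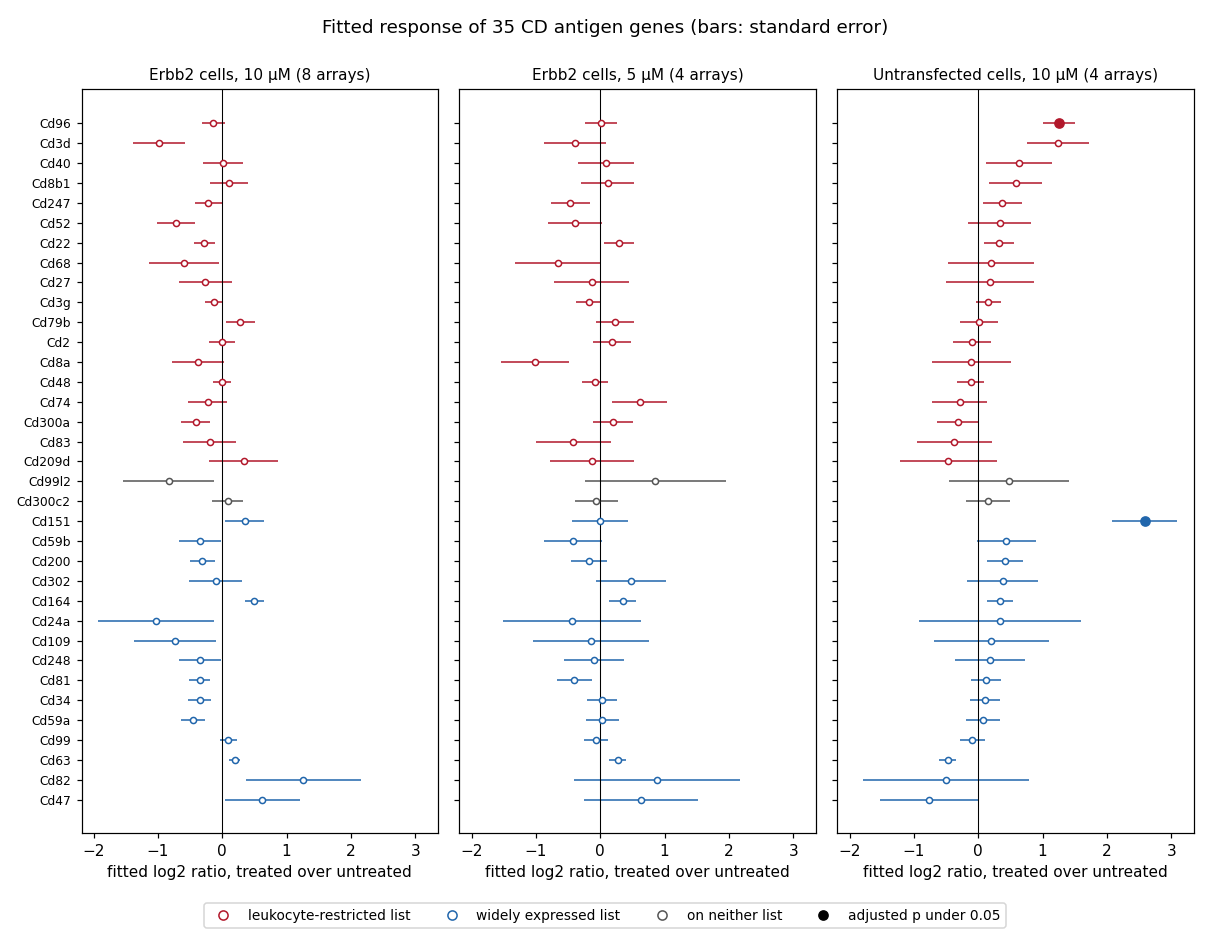
Fitted log2 ratio of treated over untreated cells (x axis) for 35 CD antigen genes (y axis) in the 3 groups, with bars of 1 standard error and colours for the gene lists. Filled points mark Cd96 at 1.26 and Cd151 at 2.59 in untransfected cells, the only values past an adjusted p of 0.05.

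Without adjustment, 5 of the 35 genes (14.3%) had p under 0.05 in Erbb2 cells at 10 µM, against 10.8% of all features. These were Cd164, which was higher, and Cd3d, Cd52, Cd59a and Cd81, which were lower. At 5 µM the count was 0 of 35, against 6.33% of all features. In untransfected cells it was 4 of 35 (11.4%), against 11.5%: Cd151, Cd96 and Cd3d with higher values and Cd63 with a lower one.

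The median of the 35 fitted values was -0.22 in Erbb2 cells at 10 µM, where the median of all features was 0.00. There 24 of 35 values (68.6%) lay below 0, against 50.6% of all features. The antigen median was -0.03 without the 3 arrays of widest spread (replicates 3, 5 and 6). At 5 µM the antigen median was -0.06, with 19 of 35 below 0, and in untransfected cells it was 0.18, with 11 of 35 below 0 (31.4%, against 46.9% of all features). Turned the other way, the untransfected median was -0.18, with 24 of 35 below 0. The leukocyte-restricted genes had medians of -0.21, -0.11 and 0.17 in the 3 groups, in that order, and the widely expressed genes -0.31, -0.01 and 0.19.

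Cd96 and Cd151 passed the threshold. Cd63 (in untransfected cells) and Cd164 (in Erbb2 cells at 10 µM) had the next lowest unadjusted p of the antigens over the 3 groups. Upstream DNA of these 4 antigens is shown because azacytidine acts on CpG methylation. Each is the 250 bases before the first listed RNA start in RefSeq, build GRCm38.p6, written 5′ to 3′ on the gene's strand, with CG in capitals. The Cd96 window lies at chr16:46120249-46120498 on the minus strand. The others lie on the plus strand: Cd151 at chr7:141467112-141467361, Cd63 at chr10:128909095-128909344 and Cd164 at chr10:41519250-41519499.
Cd96: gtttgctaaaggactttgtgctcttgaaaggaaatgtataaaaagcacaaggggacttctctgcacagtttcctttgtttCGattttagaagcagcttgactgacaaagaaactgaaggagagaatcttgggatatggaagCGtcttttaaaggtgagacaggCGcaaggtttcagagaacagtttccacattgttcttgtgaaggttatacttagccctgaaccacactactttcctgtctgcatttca
Cd151: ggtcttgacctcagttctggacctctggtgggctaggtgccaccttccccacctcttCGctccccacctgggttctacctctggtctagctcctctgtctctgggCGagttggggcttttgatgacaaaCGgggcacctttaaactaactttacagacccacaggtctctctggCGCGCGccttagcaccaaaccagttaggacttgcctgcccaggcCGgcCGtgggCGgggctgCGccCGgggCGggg
Cd63: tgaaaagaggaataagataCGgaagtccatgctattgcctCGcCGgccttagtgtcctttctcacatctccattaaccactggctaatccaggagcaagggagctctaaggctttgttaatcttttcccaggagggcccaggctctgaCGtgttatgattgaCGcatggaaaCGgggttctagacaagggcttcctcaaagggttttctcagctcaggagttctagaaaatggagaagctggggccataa
Cd164: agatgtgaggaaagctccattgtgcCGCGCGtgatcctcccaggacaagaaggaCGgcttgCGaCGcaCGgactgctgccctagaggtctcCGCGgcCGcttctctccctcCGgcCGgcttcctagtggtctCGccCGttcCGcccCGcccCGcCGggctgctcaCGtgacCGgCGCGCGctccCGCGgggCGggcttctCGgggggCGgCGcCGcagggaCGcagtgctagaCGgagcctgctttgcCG
The windows held 3, 12, 6 and 33 CpG dinucleotides, in that order. Cd151 has 2 listed starts, and the first is shown. DNA methylation was not measured in these data.

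A promoter window was found for 32 of the 47 genes. The first windows of 15 leukocyte-restricted genes held a median of 3 CpG, from 0 to 8, and 0 of 15 had 10 or more. Those of 15 widely expressed genes held a median of 6, from 0 to 33, and 6 of 15 (40.0%) had 10 or more. Of all 27025 genes in the table, 38.2% had 10 or more, and the median was 6. Among the 24 fitted genes with a window, Spearman's rho between CpG count and fitted value was 0.48 for Erbb2 cells given 10 µM, 0.41 for those given 5 µM and -0.11 for untransfected cells. The 24 genes share the same arrays and are not independent, and the Erbb2 groups share the same untreated cell line, so these are descriptions. The 5 fitted genes with 10 or more CpG in the first window were Cd151, Cd164, Cd47, Cd81 and Cd82, of which Cd47 and Cd82 were among the least even between arrays. The class depends on the start used: a later listed start held 4 CpG for Cd151, 3 for Cd82 and 22 for Cd320. The same correlation over all features was not computed.

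**Figure D2:**
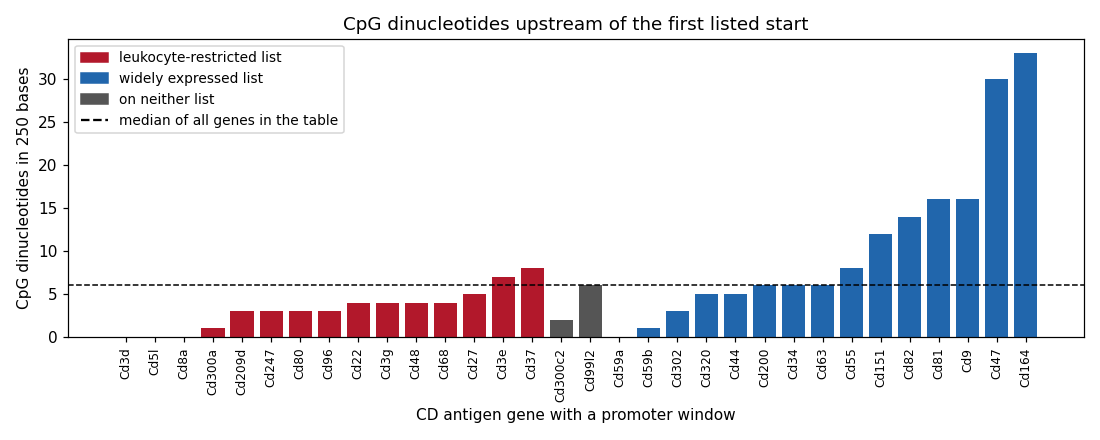
Number of CpG dinucleotides (y axis) in the 250 bases upstream of the first listed start, for 32 CD antigen genes (x axis), coloured by gene list, with the median of all genes as a dashed line. The leukocyte-restricted genes reach at most 8, and 6 widely expressed genes reach 10 or more.

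Cd96 is an immunoglobulin-family receptor of T and NK cells that binds the nectin-like protein Pvr. In untransfected cells its values were 0.78 and 0.48 on the Cy5 arrays (treated RNA in Cy5), and 1.76 and 2.02 on the Cy3 arrays. All 4 arrays lay above 0, with the Cy3 arrays the higher. The fitted value was 1.26 ± 0.25 (n = 4, limma adjusted p = 0.0107), a 2.40-fold higher level in treated cells. The SD of these 4 values was 0.748, against 0.426 at 10 µM and 0.0978 at 5 µM in Erbb2 cells. In Erbb2 cells at 10 µM the 8 arrays ran from -0.79 to 0.32 with a median of -0.03, on both sides of 0, and the fit gave -0.14 ± 0.18. At 5 µM the values were 0.09, -0.13, 0.02 and 0.06, close to 0 on every array, with a fit of 0.01 ± 0.25. By the channel 1 dye names, every untransfected array lay above every Erbb2 array. With the untransfected arrays turned the other way, the lines overlapped. The share of all features that separated the lines in this way was not counted. The call in untransfected cells was lost without replicate 3 (1.12, limma adjusted p = 0.0693) and without replicate 4 (1.03, limma adjusted p = 0.0892).

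Cd151 had 3 values in untransfected cells: 0.84 on a Cy5 array, and 4.54 and 2.64 on the Cy3 arrays. All 3 lay above 0 and differed widely among themselves. The fit gave 2.59 ± 0.50 (n = 3, limma adjusted p = 0.0115), or 6.02-fold higher. The SD of these 3 values was 1.85, against 0.607 at 10 µM and 0.48 at 5 µM in Erbb2 cells. The standard error used the spread of all 3 groups together. In Erbb2 cells at 10 µM the 8 arrays ran from -0.21 to 1.28 around a median of 0.16, with a fit of 0.35 ± 0.31. At 5 µM the values were -0.31, 0.47, 0.33 and -0.52, evenly to both sides of 0, with a fit of -0.01 ± 0.43. The untransfected call was lost without replicate 3 (1.74, limma adjusted p = 0.0921) and without replicate 4 (2.69, limma adjusted p = 0.0541). Without replicate 2 the gene could not be fitted, since no Cy5 array was left. When the untransfected arrays were fitted alone, neither call held: Cd151 was at 2.22 (limma adjusted p = 0.382) and Cd96 at 1.26 (limma adjusted p = 0.289). Of all features, 0 passed in that fit, against 339 in the main one, so the loss was not particular to these antigens.

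**Figure D3:**
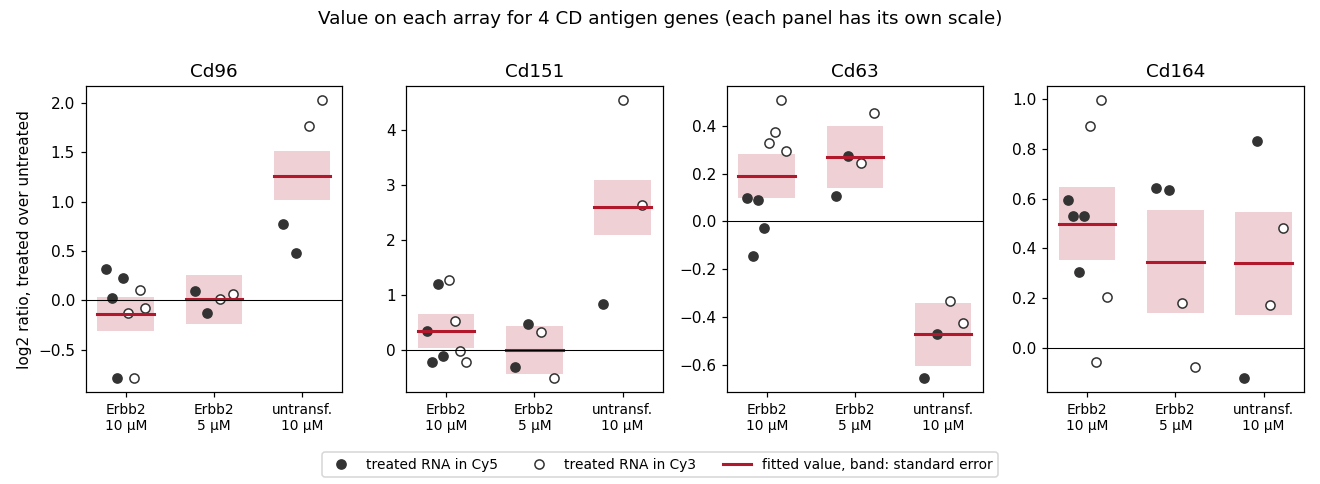
Log2 ratio of treated over untreated cells on every array (y axis) for Cd96, Cd151, Cd63 and Cd164 in the 3 groups (x axis). Filled points have the treated RNA in Cy5 and open points in Cy3, and the red line and band show the fitted value and its standard error. As the dyes were read here, the 4 untransfected arrays lie above all Erbb2 arrays for Cd96 and below them for Cd63. For these genes the lines overlap when the untransfected arrays are turned the other way. How large a share of all features separates the lines like this was not counted.

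The difference between the lines was tested directly, as Erbb2 cells at 10 µM minus untransfected cells at 10 µM. Of the 35 antigens, 1 passed: Cd96, lower in Erbb2 cells by the fit of -1.40 ± 0.30 (limma adjusted p = 0.0479), against 0.797% of all features, or 0.177% with a lower value. That call lay at the threshold and was kept in 1 of the 16 fits that left out an array (without untransfected replicate 2), and over all 16 the value ran from -1.64 to -1.17. For Cd151 the difference was -2.24 ± 0.59 (limma adjusted p = 0.131) and for Cd3d -2.22 ± 0.63 (limma adjusted p = 0.183), both short of the threshold. With the untransfected arrays turned the other way, the gene that passed was Cd151 (2.94, limma adjusted p = 0.0126), and Cd96 did not pass (1.12, limma adjusted p = 0.072). Without adjustment 5 of 35 genes (14.3%) had p under 0.05, against 9.72% of all features: Cd151, Cd22, Cd3d and Cd96 with lower values in Erbb2 cells and Cd63 with a higher one. With the untransfected arrays turned the other way, the differences of Cd3d and Cd22 were 0.25 and 0.04. The median difference was -0.48 over the antigens and -0.03 over all features, and with the untransfected arrays turned the other way -0.10 and 0.03.

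The dose comparison, 10 µM minus 5 µM within Erbb2 cells, gave 0 of 35 antigens past the adjusted threshold in limma, as 0% of all features passed it. No antigen had an unadjusted p under 0.05 either, against 4.34% of all features. The untreated cells were the same line in both groups. The lowest unadjusted p-values were those of Cd22 at -0.57 ± 0.28 and Cd74 at -0.84 ± 0.52, both with a limma adjusted p of 0.998. The largest difference was that of Cd99l2, at -1.69 ± 1.30. The standard error of the dose difference had a median of 0.51 over the 35 antigens.

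The tetraspanins, 4-pass membrane proteins that organise other receptors, were measured through Cd63, Cd81, Cd82 and Cd151. The probes of Cd9 and of Cd37, which is on the leukocyte-restricted list, had too few values. Cd63, a tetraspanin of late endosomes, lysosomes and exosomes, was the most even antigen between arrays, with a residual SD of 0.117. In untransfected cells its values were -0.66, -0.47, -0.33 and -0.43, all below 0. At 10 µM in Erbb2 cells they were 0.10, -0.14, 0.09 and -0.03 on the Cy5 arrays, and 0.33, 0.38, 0.51 and 0.29 on the Cy3 arrays. At 5 µM they were 0.10, 0.27, 0.24 and 0.46.
By the channel 1 dye names, every Erbb2 array lay above every untransfected array. With the untransfected arrays turned the other way, the lines overlapped, and the share of all features that separated them was not counted. Within Erbb2 cells at 10 µM every Cy3 array lay above every Cy5 array. The fitted values were 0.19 ± 0.09 (n = 8, limma adjusted p = 0.484), 0.27 ± 0.13 (n = 4, limma adjusted p = 0.823) and -0.47 ± 0.13 (n = 4, limma adjusted p = 0.0802). The difference between lines was 0.66 ± 0.16 (limma adjusted p = 0.0891). These missed the threshold as fitted. With probes required to have a value on every array, which left fewer features, Cd63 passed in untransfected cells (limma adjusted p = 0.0141) and between the lines (limma adjusted p = 0.0145). It also passed in untransfected cells with the arrays scaled to equal spread (limma adjusted p = 0.0405) and with array weights (limma adjusted p = 0.0432). With the untransfected arrays turned the other way, the difference between lines was -0.28 (limma adjusted p = 0.565).

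Cd81, a tetraspanin found on most cell types, was at -0.35 ± 0.16 and -0.40 ± 0.27 in Erbb2 cells (10, then 5 µM) and 0.12 ± 0.23 in untransfected cells. Cd82, known as a suppressor of metastasis, had the highest fitted value of the 35 in Erbb2 cells at both doses. At 10 µM its 6 values were 6.11, 1.65, -2.40, 1.68, -0.06 and 0.60. At 5 µM they were -0.72, -0.33 and 3.43, and in untransfected cells -1.14, -0.44 and -0.19.
Its spread covered both directions in Erbb2 cells, and a single array carried the highest value at each dose. Without replicate 1, the array at 6.11, the 10 µM fit was 0.12. The fits were 1.26 ± 0.90, 0.88 ± 1.29 and -0.51 ± 1.29, none past the threshold. Of 24 other tetraspanin genes looked for, 14 were measured and 0 passed in limma in any group, with 1, 0 and 1 at an unadjusted p under 0.05.

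The sialomucins Cd164 and Cd34 are heavily glycosylated adhesion proteins. Cd164 was above 0 on 7 of 8 arrays in Erbb2 cells at 10 µM, from -0.05 to 0.99 with a median of 0.53. Its fit was 0.50 ± 0.15 (n = 8, limma adjusted p = 0.167). At 5 µM the values were 0.64, 0.64, 0.18 and -0.07, and in untransfected cells -0.12, 0.83, 0.17 and 0.48. The 3 groups overlapped throughout, with fits of 0.35 ± 0.21 and 0.34 ± 0.21 in the smaller ones. Cd34, an antigen of blood stem cells, endothelium and some fibroblasts, was at -0.35 ± 0.18 and 0.03 ± 0.23 in Erbb2 cells (10, then 5 µM) and 0.10 ± 0.23 in untransfected cells.

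Among GPI-anchored antigens, Cd59a and Cd59b inhibit the membrane attack complex of complement. Cd59a was at -0.45 ± 0.18, 0.03 ± 0.26 and 0.07 ± 0.26 in the 3 groups in the same order, and Cd59b at -0.35 ± 0.32, -0.42 ± 0.46 and 0.44 ± 0.46. The pair are close copies, and whether their cDNA probes tell them apart is not given in the sources used here. Cd109, which binds TGF-β, was at -0.74 ± 0.63, -0.14 ± 0.89 and 0.20 ± 0.89. None of these differed from 0 at an adjusted p under 0.05.

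Cd24a, a small mucin-like GPI-anchored protein, had the lowest fit of the 35 in Erbb2 cells at 10 µM. Its 6 values there were -2.42, -5.74, 0.77, -0.93, 1.38 and -0.17. At 5 µM they were -0.60, 1.25, -2.50 and 0.10, and in untransfected cells -0.20, 3.34 and -1.67. Both directions were found in each group, and the fits were -1.03 ± 0.90, -0.44 ± 1.08 and 0.34 ± 1.26. Without replicate 2, the array at -5.74, the 10 µM fit was -0.24. In 4 of 13 of its values the linear ratio was a quotient of whole numbers up to 10, rounded to 3 decimals and matched within 0.0012 on the log2 scale. That held for 4.16% of the values of all kept probes and 4.64% of those of the antigens. The count was 3 of 13 for Cd209d, 3 of 14 for Cd47 and 0 of 16 for the also uneven Cd109.

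The "do not eat me" ligand Cd47, which binds Sirpa on phagocytes, was also uneven. At 10 µM in Erbb2 cells its 7 values were 2.49, 3.48, -1.17, -0.06, -2.26, -0.19 and 1.15. At 5 µM they were 0.30, 1.74 and -1.07, and in untransfected cells 1.64, -0.27, -2.74 and -1.68.
Each group held values of both signs. The fits were 0.62 ± 0.58, 0.63 ± 0.89 and -0.76 ± 0.76, the last the lowest of the antigens in untransfected cells. Without replicate 3 of each group they were 0.23, -0.38 and -0.37. Cd200, the ligand of an inhibitory myeloid receptor, was at -0.31 ± 0.20, -0.17 ± 0.28 and 0.41 ± 0.28, and at 5 µM its 2 probes differed in sign (0.23 and -0.57).

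Cd99, an adhesion protein of leukocyte passage through endothelium, was even between arrays (residual SD 0.321) and near 0 at 0.09 ± 0.13, -0.07 ± 0.19 and -0.09 ± 0.19. Its relative Cd99l2 was far less even. Its 7 values at 10 µM in Erbb2 cells were -1.35, -1.80, 2.48, -1.42, -4.78, 1.21 and -0.11. At 5 µM they were 0.19, 2.40 and 0.07, and in untransfected cells -0.71, 0.23, 2.53 and -0.11.
The 5 µM arrays all lay above 0, while the other groups held both signs. The fits were -0.84 ± 0.71 (-0.05 without replicate 5), 0.86 ± 1.09 (0.13 without replicate 2) and 0.49 ± 0.93. The remaining widely expressed antigens were Cd248 (endosialin, of pericytes and stromal fibroblasts) at -0.34 ± 0.33, -0.10 ± 0.47 and 0.19 ± 0.54, and the lectin Cd302 at -0.10 ± 0.41, 0.47 ± 0.55 and 0.38 ± 0.55.

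The T-cell receptor complex was represented by its signalling subunits Cd3d, Cd3g and Cd247, while the probe of Cd3e had too few values. Cd3d had 6 values at 10 µM in Erbb2 cells: -0.42, -0.61, -2.39, -0.33, -1.94 and 0.15. At 5 µM they were -0.96, -0.65, 0.87 and -0.85, and in untransfected cells 1.34, -0.14, 2.66 and 1.09.
Most Erbb2 arrays lay below 0 and most untransfected arrays above it, with some overlap. The fits were -0.99 ± 0.40 (limma adjusted p = 0.39), -0.40 ± 0.48 and 1.24 ± 0.48 (limma adjusted p = 0.303), none past the threshold. Cd3g, the neighbour subunit, was near 0 at -0.14 ± 0.14, -0.18 ± 0.19 and 0.16 ± 0.19.

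Cd247, the zeta chain, had 2 kept probes that gave the same sign in each group. Its values at 5 µM were -0.96, -0.67, -0.18 and -0.05, all below 0. In Erbb2 cells at 10 µM the 8 arrays ran from -0.94 to 0.17 with a median of -0.06, and untransfected values were 0.91, -0.27, 1.46 and -0.59.
The groups overlapped in these means of 2 probes, and the fits were -0.22 ± 0.21, -0.46 ± 0.30 and 0.38 ± 0.30. The probes were unlike in spread, with an SD over all arrays of 0.45 and 1.03. In the more even probe, the untransfected values lay above all Erbb2 values by the channel 1 dye names. Turned the other way they overlapped, and the share of all probes that separated the lines was not counted. The co-receptor subunit Cd8a had the lowest fit at 5 µM, with values of -0.34, -0.86, -2.78 and -0.08, all below 0. At 10 µM in Erbb2 cells its 7 values ran from -2.19 to 1.07 with a median of -0.20, and untransfected values were -0.67, 0.15 and 0.25. The fits were -0.38 ± 0.40, -1.01 ± 0.53 (-0.35 without replicate 3, the array at -2.78) and -0.11 ± 0.62, and its partner Cd8b1 was at 0.10 ± 0.29, 0.11 ± 0.41 and 0.58 ± 0.41.

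No other lymphocyte antigen passed the threshold in any group. The adhesion receptor Cd2 was at 0.00 ± 0.21, 0.18 ± 0.29 and -0.10 ± 0.29, means of 2 probes that differed in sign in each group (0.36 and -0.19, 0.57 and -0.20, -0.47 and 0.28). Its ligand Cd48 was at 0.00 ± 0.14, -0.08 ± 0.20 and -0.12 ± 0.20. The costimulatory receptor Cd27 was at -0.26 ± 0.41, -0.13 ± 0.59 and 0.18 ± 0.68, with 2 probes that differed at 10 µM in Erbb2 cells (0.00 and -0.55). Cd52, a short GPI-anchored glycoprotein of lymphocytes, was at -0.73 ± 0.30, -0.39 ± 0.42 and 0.34 ± 0.49. Of B-cell antigens, the sialic acid-binding inhibitor Cd22 was at -0.28 ± 0.16, 0.29 ± 0.23 and 0.32 ± 0.23, and the B-cell receptor subunit Cd79b at 0.28 ± 0.22, 0.23 ± 0.30 and 0.01 ± 0.30.

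Antigens of macrophages and other antigen-presenting cells gave no call either. Cd68, a lysosomal glycoprotein of macrophages, had 5 µM values of 0.18, -3.07, 0.17 and 0.08, with 1 array far below the rest, and a fit of -0.66 ± 0.67 (0.17 without that array, replicate 2). At 10 µM in Erbb2 cells its 6 values ran from -3.38 to 1.02 with a median of -0.47, and in untransfected cells they were 0.23, -0.15, 0.89 and -0.17. The fits there were -0.59 ± 0.54 and 0.20 ± 0.67. The invariant chain Cd74 was at -0.23 ± 0.30, 0.61 ± 0.43 and -0.29 ± 0.43, and its 2 kept probes differed in sign at 10 µM in both lines. Cd40, a receptor of the TNF family, was at 0.01 ± 0.31, 0.09 ± 0.44 and 0.63 ± 0.51, and the dendritic cell marker Cd83 at -0.20 ± 0.41, -0.42 ± 0.58 and -0.37 ± 0.58. The lectin Cd209d was at 0.33 ± 0.54, -0.13 ± 0.65 and -0.47 ± 0.76, the inhibitory receptor Cd300a at -0.41 ± 0.22, 0.20 ± 0.32 and -0.32 ± 0.32, and its relative Cd300c2 at 0.08 ± 0.24, -0.06 ± 0.34 and 0.15 ± 0.34.

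The residual SD between arrays had a median of 0.884 over the 35 genes, 0.875 over the leukocyte-restricted, 0.914 over the widely expressed and 0.739 over all features. It was largest for Cd82 (2.49), Cd24a (2.40), Cd99l2 (2.06), Cd109 (1.94) and Cd47 (1.67), and of these Cd82, Cd47, Cd24a and Cd99l2 were among the 3 highest or 3 lowest fits in Erbb2 cells at 10 µM. After Cd63 and Cd99 the smallest were Cd3g (0.33), Cd48 (0.361) and Cd164 (0.369). Signal intensity is not in the files, so its part in this was not tested.

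**Figure D4:**
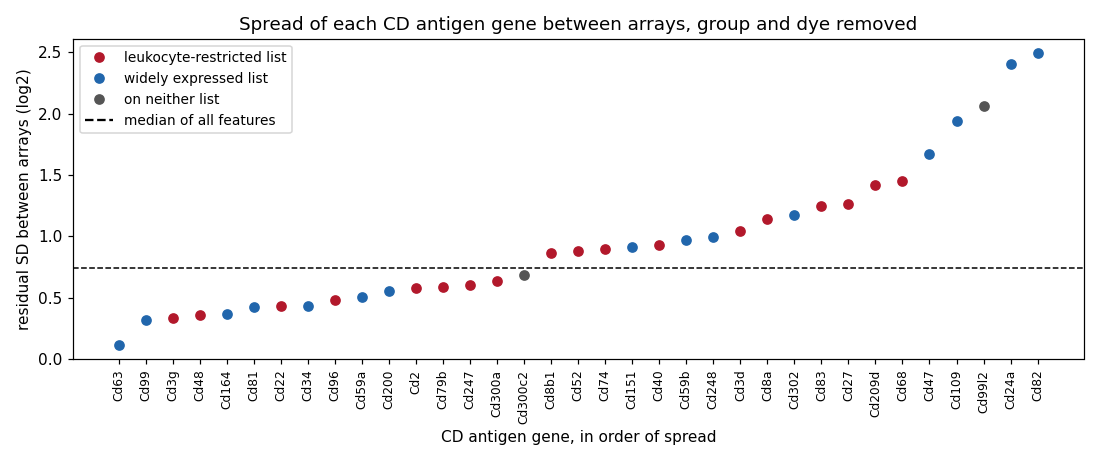
Residual SD between arrays in log2 units (y axis), after group and dye were fitted, for 35 CD antigen genes (x axis) in order of spread and coloured by gene list, with the median of all features as a dashed line at 0.739. Cd63 is lowest at 0.117 and Cd82 highest at 2.49, and the 5 highest genes are not on the leukocyte-restricted list.

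Of the 60 antigen probes, 30% had a value on all 16 arrays, against 39.2% of all probes. The share was 27.8% for the leukocyte-restricted and 31.8% for the widely expressed probes. The 12 genes with no probe that could be fitted were Cd28, Cd37, Cd3e, Cd5l, Cd6, Cd7, Cd80 and Cd86 of the leukocyte list and Cd320, Cd44, Cd55 and Cd9 of the widely expressed list. A value on the same side of 0 on every array was found for 0 of 35 genes in Erbb2 cells at 10 µM (3.35% of all features), 7 of 35 at 5 µM (20%, against 18.5%) and 6 of 35 in untransfected cells (17.1%, against 25.5%).

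Surface antigens that carry a CD number under another gene name were counted for comparison, with 53 of 93 measured. In Erbb2 cells at 10 µM 1 passed: Fcgr2b, an inhibitory IgG receptor, fell by 0.55 ± 0.10 on the log2 scale (limma adjusted p = 0.00827). Of all features 1.26% passed there. In untransfected cells 4 of 53 passed, against 2.73% of all features. The amino acid transporter chain Slc3a2 (-1.52 ± 0.17), the endothelial cadherin Cdh5 (-1.08 ± 0.13) and Fcgr2b (-0.82 ± 0.14) fell, and the interferon-induced antigen Bst2 rose (1.45 ± 0.31). Between the lines Slc3a2 (1.28 ± 0.21), Cdh5 (1.14 ± 0.16) and the integrin chain Itgb1 (0.88 ± 0.18) passed, 3 of 53 against 0.797% of all features, with a higher ratio in Erbb2 cells. Turned the other way, these differences were -1.75, -1.02 and -0.22, and that of Itgb1 did not pass (limma adjusted p = 0.754). With that turning Fcgr2b (-1.37, limma adjusted p = 0.000172) and Bst2 (1.53, limma adjusted p = 0.0473) passed between the lines. Of a separate list of leukocyte markers 13 of 20 were measured, and 1 passed in any group, the adaptor Tyrobp at -0.68 ± 0.16 in untransfected cells. Of fibroblast markers 12 of 15 were measured, and the matrix protein Sparc rose by 0.68 in Erbb2 cells at 10 µM. In untransfected cells 4 of 12 passed, against 2.73% of all features: the matrix genes Fn1 (-1.63) and Col1a2 (-0.79), the collagen cross-linking enzyme Lox (-1.06) and vimentin, Vim (-0.55), fell. Between the lines Fn1 passed, at 1.68 ± 0.25, or -1.57 with the untransfected arrays turned the other way. Of the other fibroblast markers named here, Lox (-1.32) and Vim (-0.83) also passed between the lines with that turning.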

How the data were processed

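RNA of treated and untreated cells was compared on 16 2-colour cDNA arrays. The authors deposited 1 log ratio per probe and array, read here as log2; the base, image analysis, background correction and normalization were not given in the sources used here. In 99.2% of 5687 cells with a linear ratio under 0.2, the values were, within 0.1 of a whole thousandth, the log2 of a ratio with 3 decimals plus 1 constant per array. On each array the top value matched a linear ratio of 100000 and was read as a placeholder: 1755 of 325680 cells, set to missing beside 38737 empty ones. Value columns left unused numbered 0.

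Arrays with the treated RNA in Cy3, by the channel 1 dye label, had their sign turned. For 1 untransfected array, whose title lacks a number, replicate 1 was assigned by accession order. The label protocol speaks of organs and an animal reference pool and was not used. Probes needed values on 3 of 4 or 6 of 8 arrays of each group, with 1 or more per dye. That kept 14813 of 20355 probes. Symbols came from the platform annotation: 14030 probes had 1 symbol, 5 several and 6320 none, and all 47 antigens were found in RefSeq by gene ID. Probes of 1 symbol were averaged, which gave 12420 features.

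One limma model (limma 3.58.1, R 4.3.3) held a coefficient per group and a dye term, with empirical Bayes and Benjamini-Hochberg adjustment over all features. The threshold was an adjusted p under 0.05. The code was tested on simulated data. Antigens and gene lists were chosen with earlier results of these data known. Every fitted antigen is named; array values are given for those past the threshold and the 3 highest and 3 lowest of each group. Companion genes are named where they passed, at most 6 a list and group. Alternatives covered turning, dye term, filters, scaling, weights, blocking and each array left out. Same-numbered arrays did not deviate together (Pearson's r -0.0288 to 0.0719 over 7415 features), so numbers were not used as pairs.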

Additional observations from a re-analysis of the deposited data

Results flagged for a closer look

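A single array was flagged in 7 of 92 groups of antigen values. Its gap to the nearest other array was a large part of the group's range, whatever the size of that range. For independent, normally distributed values the rule flags about 1 in 20 groups, or 4.6 here. The antigens share the same arrays, and the share flagged over all features was not counted. In Erbb2 cells at 10 µM, Cd34 was at 0.79 on replicate 8 with the others between -0.73 and -0.34, and Cd52 was at -2.88 on replicate 3 with the others between -0.95 and 0.19. Replicate 5 of the same group gave -1.97 for Cd59a, against -0.49 to 0.10, and -4.06 for Cd83, against -0.39 to 1.20. At 5 µM, replicate 3 gave 0.68 for Cd34, against -0.27 to -0.12, and -0.72 for Cd83, against -0.33 to -0.30, and replicate 2 gave -3.07 for Cd68, against 0.08 to 0.18. Left out in turn, these arrays moved the fits at 10 µM to -0.55 for Cd34, -0.43 for Cd52, -0.23 for Cd59a and 0.30 for Cd83, and at 5 µM to -0.16 for Cd34, -0.54 for Cd83 and 0.17 for Cd68. None of these genes passed the threshold in any group. The response of Cd96 differed between the lines by a test of the difference itself, at -1.40 (limma adjusted p = 0.0479), and that call lay at the threshold.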

How the results depend on the processing

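No antigen was called in Erbb2 cells at either dose, or between doses, under any alternative run. In untransfected cells the count of 2 fell to 0 with no array turned and to 0 with that group fitted alone, and ran from 0 to 2 when each array was left out. The count of 1 between the lines became 0 with no array turned, with at least 2 values per group, with array weights, with robust empirical Bayes and without the 3 widest arrays (0 each), and 2 (Cd63 and Cd96) with a value required on every array; leaving out each array gave 0 to 1. With the untransfected arrays turned the other way it stayed 1, with Cd151 in place of Cd96. Cd151 in untransfected cells became -1.92 with no array turned and -2.59 with that group turned the other way. Cd96 became -0.63 and -1.26 there, and its difference between lines 0.71 and 1.12. With a replicate block the antigen counts were 0, 0, 2, 0 and 1 for the 3 groups, the doses and the lines, and no call changed. Over all features the 157, 26, 339 and 99 calls (3 groups, then lines) became 2, 0, 4 and 0 with no array turned, 247, 73, 474 and 189 with a value on every array, and 32, 20, 377 and 65 without the 3 widest arrays. Leaving out each array gave 93 to 148, 5 to 21, 211 to 368 and 55 to 101. Fitted alone, the groups gave 18, 0 and 0. At 5 µM the count was 4 with at least 2 values per group, 46 with arrays scaled, 118 with array weights and 16 with probes fitted singly. At 10 µM it was 98 with at least 2 values per group, and between lines 351 with the untransfected arrays turned. Causes were not tested. Signal over background is not in the files, so what it limits is unknown.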
